A study of Mus musculus with 6 samples.

Results

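The genes described here are 38 nuclear genes of mitochondrial fuel oxidation, chosen by name from the 55433 gene rows of each count file. Of these, 20 belong to the tricarboxylic acid (TCA) cycle with pyruvate dehydrogenase and pyruvate carboxylase, and 18 to fatty acid oxidation with 2 of its regulators. RNA-seq counts came from the entire spinal cord of mouse embryos, E13.5 by stage and C57BL/6J by strain, as labelled. The 3 libraries labelled control carry the genotype NFIA-ff, and the 3 labelled NFIAcKO carry NFIA-ff with Nestin-cre. Both groups thus share the floxed Nfia allele, and cre, which the Nestin transgene drives in neural progenitors, was present in the second group alone. The study asks what the transcription factor NFIA does in motor neuron development and metabolism, and deletion and transgene cannot be told apart in this design.

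The controls held 2641, 3110 and 3683 counts of Nfia and the libraries labelled NFIAcKO 5144, 5016 and 5636, so the targeted gene was higher where the label says that it was deleted (log2 fold change 0.75, SE 0.11, adjusted p = 0.0031 by edgeR). A count over the whole gene also holds exons that remain after recombination and does not test the deletion. Directions below are therefore those of the labels. Depth was 43393053 to 51465763 gene counts. Neuronal and Hox genes were abundant, as for a cord: Tubb3 stood at 2210 ± 94.4 CPM (SD, n = 3) and Hoxb8 at 994 ± 154 CPM in the controls, while 7 skeletal muscle markers summed to 3.89 to 8.003 CPM per control library and 5.25 to 7.67 CPM in the others. The sum of 5 hepatocyte markers was 1.09 to 16.5 and 1.86 to 5.12 CPM, and was highest in control replicate 3, where Afp stood at 12.5 CPM. Other non-neural markers were abundant. Erythroid markers summed to 1721 to 1966 and 1410 to 2072 CPM, and meningeal and fibroblast markers to 1277 to 1650 and 1488 to 2047 CPM. Cartilage and sclerotome markers summed to 160 to 228 and 229 to 257 CPM. Xist counts of 17620 in control replicate 2 and 9316 in NFIAcKO replicate 2, and at most 3 elsewhere, show both sexes in both groups.

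The TCA cycle oxidizes acetyl-CoA in the mitochondrial matrix and passes its electrons to the respiratory chain. Pyruvate dehydrogenase supplies acetyl-CoA from sugar, and beta-oxidation supplies it from fatty acids that the carnitine shuttle carries across the inner membrane. In the nervous system, neurons run mainly on glucose-derived fuel, and fatty acid oxidation is known best from glia and neural progenitors. The 4 subunits of succinate dehydrogenase, which is both a TCA enzyme and complex II of the respiratory chain, come from 4 nuclear genes.

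Stretches of promoter from the RefSeq table of GRCm38.p6 are shown for 3 of the 4 succinate dehydrogenase genes, since the subunit genes of that complex differed in their calls, and for part of the gap between Hadha and Hadhb, a divergent pair whose products form a single enzyme. Each is written 5′ to 3′ on the strand of the gene and ends at the base before its start. Capitals mark any of the 6 motifs described with the promoters below.
Sdha (chr13:74350241-74350390, minus strand): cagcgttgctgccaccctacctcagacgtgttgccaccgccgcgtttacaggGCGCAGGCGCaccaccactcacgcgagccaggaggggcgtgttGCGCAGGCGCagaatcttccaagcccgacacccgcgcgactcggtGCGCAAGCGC
Sdhb (chr4:140961121-140961270, plus strand): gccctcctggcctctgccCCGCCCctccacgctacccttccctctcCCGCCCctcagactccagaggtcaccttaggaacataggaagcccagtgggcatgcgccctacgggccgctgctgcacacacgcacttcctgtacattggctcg
Sdhd (chr9:50603850-50603999, minus strand): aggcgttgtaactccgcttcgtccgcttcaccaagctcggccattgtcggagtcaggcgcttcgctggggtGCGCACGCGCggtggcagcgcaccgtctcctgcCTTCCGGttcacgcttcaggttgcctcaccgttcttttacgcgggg
Hadhb (chr5:30155163-30155252, plus strand): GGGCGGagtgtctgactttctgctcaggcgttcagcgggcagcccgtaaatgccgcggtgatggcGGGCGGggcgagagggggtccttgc

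All 38 genes passed the filter on low counts. In the libraries labelled NFIAcKO, 12 of them fell, 1 rose and 25 did not pass at an edgeR adjusted p under 0.05. The share that fell was 31.6%, beside 6.08% of all 17711 tested genes, and the share that rose was 2.63%, beside 7.86%. The changes were small, with a median log2 fold change of -0.14 for the 38 genes and -0.01 for all tested genes, and none of the 12 falls except those of Sdhd and Etfb exceeded 1.5-fold. In 19 of the 38 genes all 3 libraries labelled NFIAcKO lay below all 3 controls, beside 16.1% of tested genes, and in 2 they lay above, beside 17.3%. Of the TCA set 6 of 20 genes fell and of the fatty acid set 6 of 18, and the single rise was Ppargc1a. With upper quartile scaling 13 of the 38 fell and 0 rose, and the calls over all tested genes split into 1057 higher and 1434 lower, against 1392 and 1076 with TMM scaling. Genes of short annotated exonic length were lower as a class in the libraries labelled NFIAcKO. A trend with exonic length and GC content was removed in an alternative fit. The value from it is given as the trend-removed value for each called member or named pathway gene, and for some others. In that fit 7 genes fell (18.4%, beside 3.88% of tested genes) and 0 rose (beside 3.83%), the call of Ppargc1a being lost. Of those 7, 6 were also called as counted, namely Pcx, Suclg1, Sdhb, Sdhd, Fh1 and Slc25a20, and the other was Dlst. They were 6 of the 20 TCA genes (30%) and 1 of the 18 fatty acid genes (5.56%), and the difference between the sets was not tested.

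**Figure D1:**
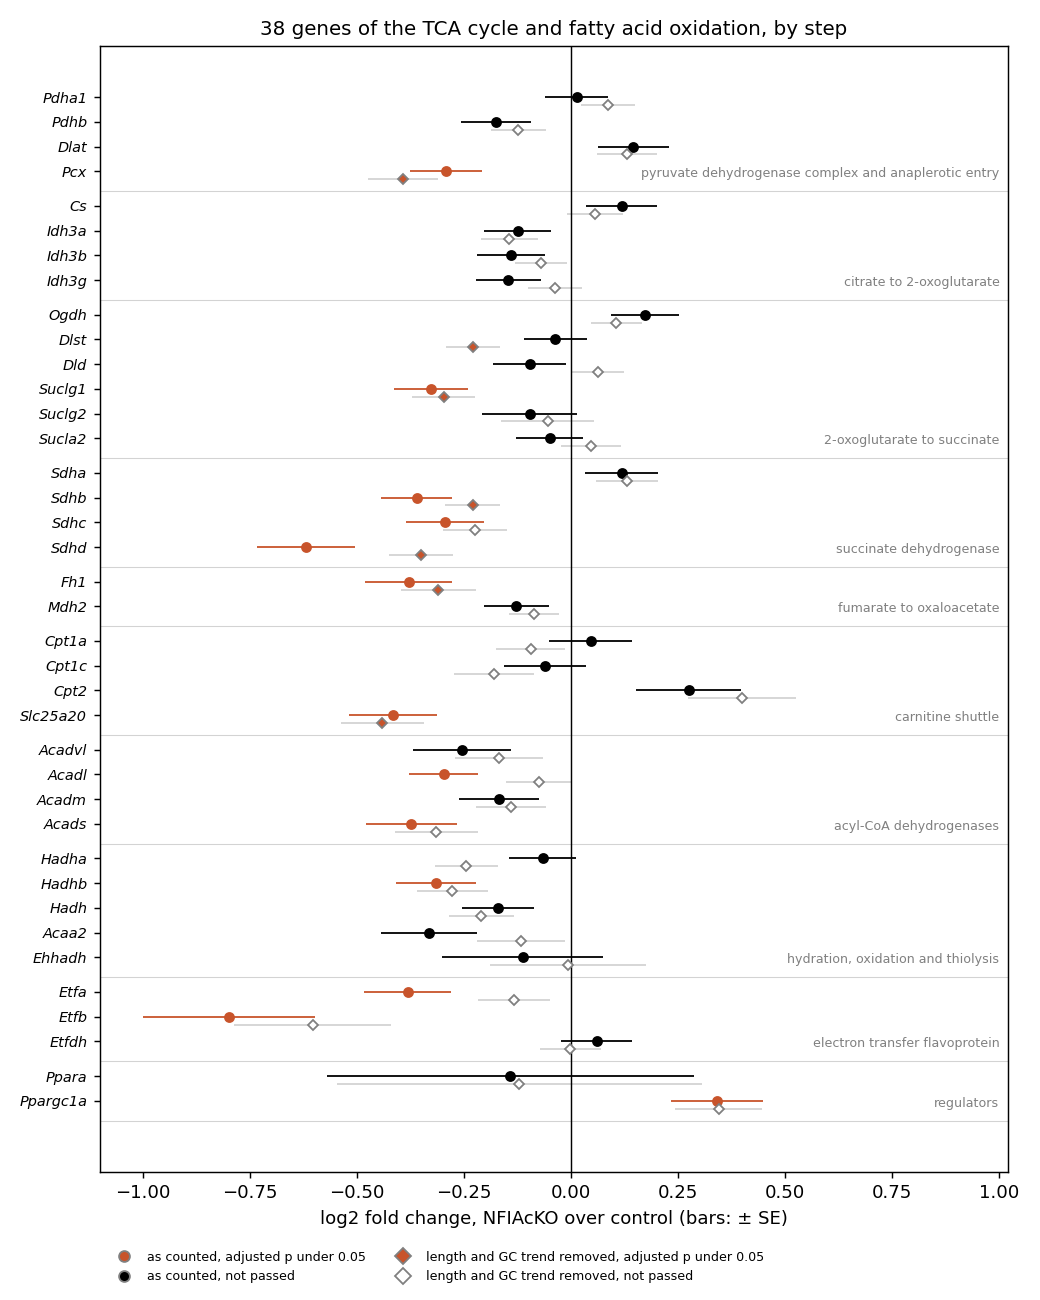
Log2 fold change (x axis, NFIAcKO over control) of the 38 genes (y axis), grouped by step, as circles for the counts as deposited and diamonds with the length and GC trend removed; bars are ± SE and orange marks an adjusted p under 0.05. Of the circles, 12 are orange to the left of 0 and 1, Ppargc1a, to the right, and 7 diamonds are orange, all to the left.

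In bulk tissue, fewer cells of a type and less RNA per cell cannot be told apart, and cell markers moved alongside these genes. The summed level of 8 neuronal markers was 8415 to 8733 CPM in the controls and 9474 to 9937 CPM in the libraries labelled NFIAcKO, with 3 members higher. Of 8 radial glia and progenitor markers 3 fell and 2 rose, and their sum was 2793 to 2962 and 2624 to 2891 CPM. Fabp7, a fatty acid binding protein of radial glia, stood at 981 ± 166 and 660 ± 35.8 CPM and fell (SD, n = 3, edgeR adjusted p = 0.00749). Slc1a3 and Hes5 fell as well. Nes, at 426 ± 83.8 and 589 ± 61.9 CPM, and Mki67, at 44.4 ± 13.1 and 82.2 ± 7.13 CPM, rose (edgeR adjusted p = 0.0289 and 0.0225). Of 7 tested astrocyte lineage markers 2 fell and 1 rose (sums 666 to 754 and 655 to 691 CPM), while Gfap, which marks mature astrocytes, averaged 0.0882 and 0.0917 CPM. Endothelial markers summed to 265 to 318 and 341 to 365 CPM, with 4 of 6 higher and 1 lower. Pericyte markers summed to 312 to 352 and 333 to 338 CPM, with 3 of 5 higher and 1 lower, and microglial markers to 88.7 to 97.9 and 72.3 to 80.1 CPM, with 2 of 7 lower. Oligodendrocyte precursor markers summed to 134 to 159 and 91.3 to 127 CPM, with 2 of 6 lower, and dorsal root ganglion markers to 125 to 151 and 117 to 118 CPM, with 1 of 5 lower. These marker calls and sums are as counted, with no length and GC trend removed, and the part of that trend in them was not tested. The part of the marker differences in the results was not tested either.

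Pyruvate enters the cycle by oxidation or by carboxylation. The pyruvate dehydrogenase subunit genes did not pass the test. Pdha1, which encodes the catalytic E1 alpha subunit, stood at 103, 97.7 and 100 CPM in the controls, in the order of replicates 1 to 3 as throughout, and at 102, 99.2 and 102 CPM in the libraries labelled NFIAcKO, with overlapping groups (log2 fold change 0.01, SE 0.07). Pdhb, for E1 beta, was lower in every library labelled NFIAcKO (-0.18, adjusted p = 0.161 by edgeR), and Dlat, for the E2 core, took a value of 0.15 (adjusted p = 0.259). Of the reads of Pdha1, those in a stretch of 603 bp lie where Map3k15 is annotated on the other strand. Pcx, the pyruvate carboxylase that refills oxaloacetate, stood at 40.5, 42.0 and 39.3 CPM in the controls and at 32.7, 34.3 and 32.5 CPM in the libraries labelled NFIAcKO. The groups did not overlap, and Pcx fell by 0.29 on the log2 scale (SE 0.08, adjusted p = 0.0316 by edgeR). Its trend-removed value was -0.39 (adjusted p = 0.0207).

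The first steps of the cycle, from citrate to 2-oxoglutarate, held no called gene. Cs, the citrate synthase, stood at 283, 255 and 303 CPM in the controls and 302, 311 and 299 CPM in the libraries labelled NFIAcKO. Control replicate 2 was the lowest, and the groups overlapped (0.12, SE 0.08, adjusted p = 0.377 by edgeR). The 3 genes of NAD-dependent isocitrate dehydrogenase, Idh3a, Idh3b and Idh3g, took values of -0.12, -0.14 and -0.15 (adjusted p = 0.314, 0.255 and 0.209). Idh3b and Idh3g were lower in every library labelled NFIAcKO.

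From 2-oxoglutarate to succinate 1 of 6 genes fell. Ogdh, the E1 subunit of 2-oxoglutarate dehydrogenase, stood at 180, 171 and 196 CPM in the controls and at 202, 209 and 205 CPM in the libraries labelled NFIAcKO, all above the controls, but did not pass (0.17, SE 0.08, adjusted p = 0.157 by edgeR). Its partners Dlst, the E2 subunit, and Dld, the E3 subunit shared with pyruvate dehydrogenase, took values of -0.04 and -0.10. Dlst has the greatest annotated exonic length of the 38 genes, 9559 bp over all its transcripts, and was called only with the trend removed (-0.23, adjusted p = 0.0434). Suclg1, the alpha subunit common to both succinyl-CoA ligases, stood at 72.3, 81.7 and 65.6 CPM in the controls and at 57.4, 59.4 and 58.2 CPM in the libraries labelled NFIAcKO. The groups did not overlap, and Suclg1 fell by 0.33 (SE 0.09, adjusted p = 0.0248), with a trend-removed value of -0.30 (adjusted p = 0.029).

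The beta subunits of succinyl-CoA ligase set whether ATP or GTP is made. The ATP-forming Sucla2 stood at 86.6, 81.3 and 86.6 CPM in the controls and at 76.9, 82.8 and 86.1 CPM in the libraries labelled NFIAcKO. The GTP-forming Suclg2 stood at 13.46, 13.2 and 15.6 CPM and at 13.53, 13.0 and 12.96 CPM. Per kb of exons, the control level of Sucla2 was 21.3 CPM and that of Suclg2 3.05 CPM, so the ATP form led in the cord. The log2 ratio of their CPM was 2.59 ± 0.11 in the controls and 2.64 ± 0.12 in the libraries labelled NFIAcKO (SD, n = 3), a difference of 0.04 that was smaller than the spread between replicates (exact two-sided permutation test, p = 0.6, where 3 against 3 cannot go below 0.1). The ratio of Suclg1 to Sucla2, set beside it after the values were seen and not tested, was -0.22 ± 0.21 and -0.49 ± 0.07 on the log2 scale.

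In succinate dehydrogenase 3 of the 4 genes fell, Sdhd most clearly and Sdhc least. Sdhd, a membrane anchor subunit that helps bind ubiquinone, stood at 107, 125 and 84.9 CPM in the controls and at 69.3, 71.8 and 65.5 CPM in the libraries labelled NFIAcKO. Every library labelled NFIAcKO lay below every control, and the controls spread more widely than the other group. Sdhd fell by 0.62 (SE 0.11, adjusted p = 0.0073 by edgeR), and by 0.35 with the trend removed (adjusted p = 0.0219). It lies on chromosome 9 from 50596357 to 50603812 on the minus strand and has 1231 bp of annotated exons. Sdhb, the iron-sulfur subunit, stood at 136, 137 and 121 CPM in the controls and at 104, 108 and 94.9 CPM in the libraries labelled NFIAcKO. It fell by 0.36 (SE 0.08, adjusted p = 0.0137), with a trend-removed value of -0.23 (adjusted p = 0.0432). Sdhc, the other anchor, stood at 144, 154 and 129 CPM and at 126, 117 and 105 CPM, again without overlap. It fell by 0.29 (SE 0.09, adjusted p = 0.0425), a call that was lost with the trend removed (-0.22, adjusted p = 0.0815).

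Sdha, the flavoprotein that holds the active site, did not pass. Its levels were 192, 169 and 204 CPM in the controls and 207, 207 and 200 CPM in the libraries labelled NFIAcKO, which overlapped (0.12, SE 0.08, adjusted p = 0.382 by edgeR). The log2 ratio of Sdhd to Sdha was -0.85 ± 0.41 in the controls and -1.57 ± 0.04 in the libraries labelled NFIAcKO (SD, n = 3). The ratio of Sdhb to Sdha was -0.52 ± 0.23 and -1.002 ± 0.07, and that of Sdhc to Sdha -0.41 ± 0.27 and -0.82 ± 0.10. These ratios were taken after the values were seen, and the difference between subunits was not tested. With 4126 bp of exons Sdha is the longest of the 4, and Sdhc has 3250 bp, Sdhb 2239 bp and Sdhd 1231 bp. The ratios are as counted. With the trend removed Sdha took 0.13 (adjusted p = 0.281 by edgeR), beside -0.22 for Sdhc, -0.23 for Sdhb and -0.35 for Sdhd.

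Fh1, the fumarase that follows, fell, and Mdh2, the malate dehydrogenase that closes the cycle, did not pass. Fh1 stood at 82.0, 88.9 and 64.4 CPM in the controls and at 59.9, 60.8 and 60.3 CPM in the libraries labelled NFIAcKO. Control replicate 3 lay nearest to the other group, and Fh1 fell by 0.38 (SE 0.10, adjusted p = 0.0259 by edgeR), with a trend-removed value of -0.31 (adjusted p = 0.0472). Mdh2 was lower in all 3 libraries labelled NFIAcKO, at 262 ± 6.86 CPM against 286 ± 6.24 CPM (SD, n = 3; -0.13, SE 0.08, adjusted p = 0.283).

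**Figure D2:**
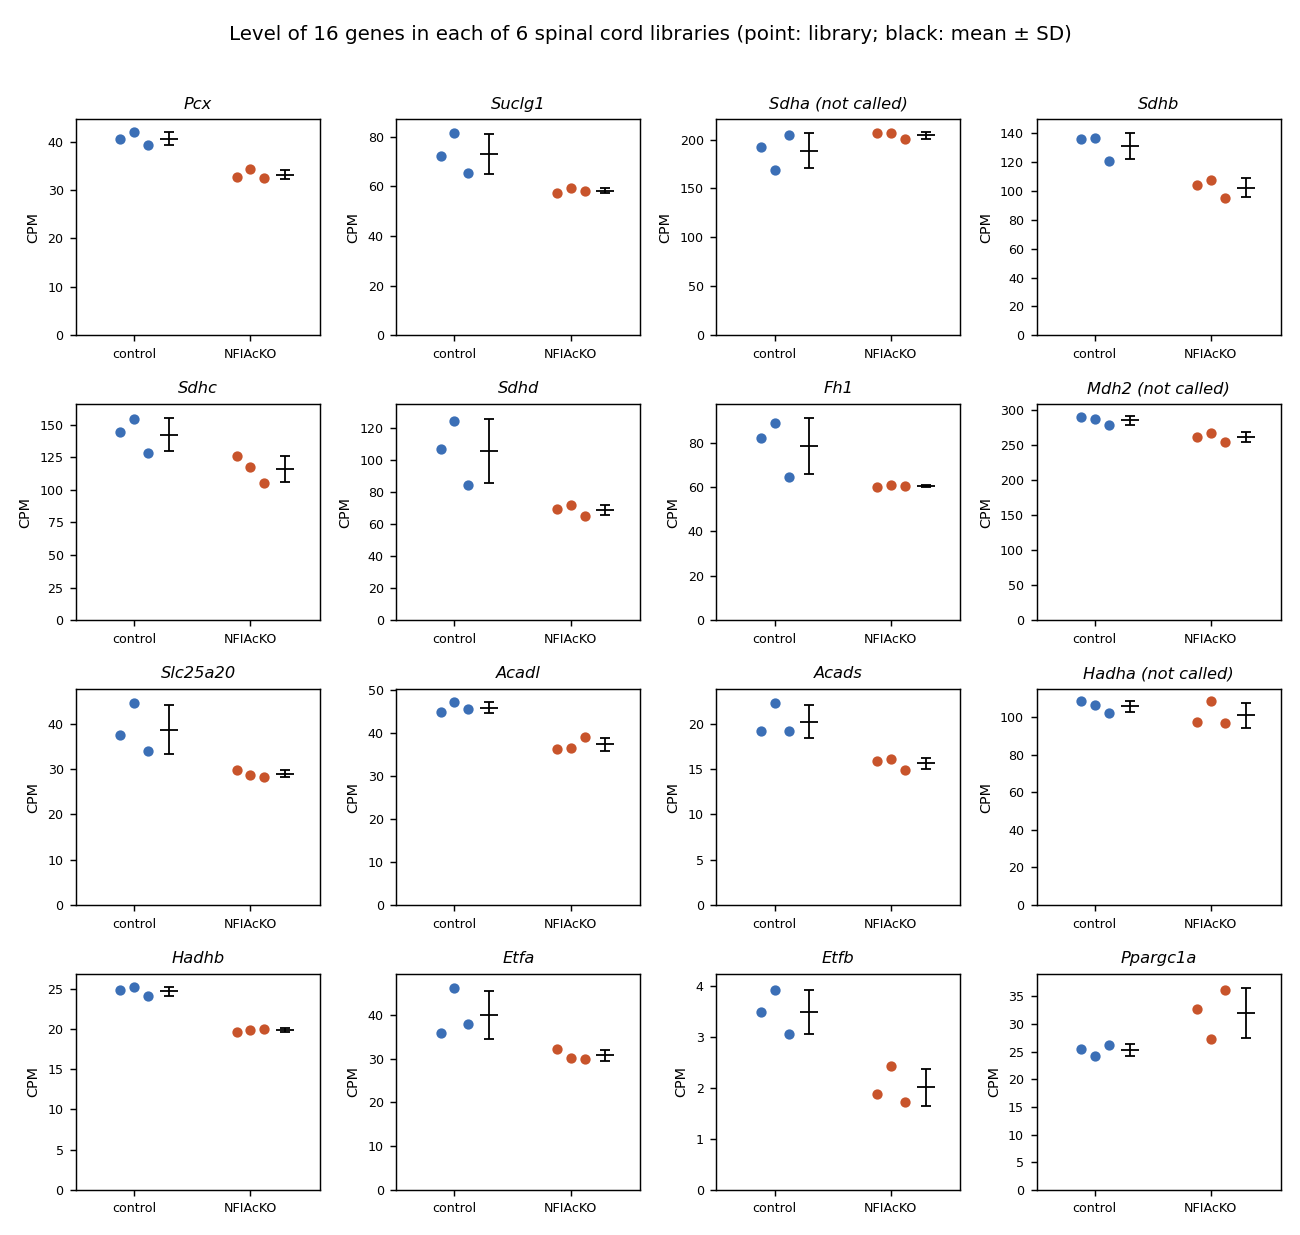
CPM (y axes, from 0) of 16 genes in each library labelled control (blue) or NFIAcKO (orange), with the mean ± SD in black; genes marked as not called missed an adjusted p of 0.05. Sdhb, Sdhc and Sdhd lie lower in every library labelled NFIAcKO, Sdha and Hadha overlap between groups, and Ppargc1a lies higher.

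Genes of fatty acid oxidation were less abundant than those of the cycle. Per kb of exons, the median control level was 5.76 CPM for the 18 fatty acid genes and 31.98 CPM for the 20 of the TCA set. The order ran from 22.8 CPM per kb for Acadl and 21.8 for Etfa down to 0.966 for Ehhadh and 0.136 for Ppara.

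The carnitine shuttle moves long-chain acyl groups into the matrix, and 1 of its 4 genes fell. Slc25a20, the carnitine-acylcarnitine translocase of the inner membrane, stood at 37.5, 44.6 and 34.0 CPM in the controls and at 29.9, 28.8 and 28.3 CPM in the libraries labelled NFIAcKO. The groups did not overlap. It fell by 0.42 (SE 0.10, adjusted p = 0.0178 by edgeR) and by 0.44 with the trend removed (adjusted p = 0.0236). Cpt1a, the outer membrane transferase that controls entry, stood at 32.9, 28.0 and 33.9 CPM and at 32.7, 30.8 and 34.3 CPM, with overlapping groups (0.05, SE 0.10, adjusted p = 0.8).

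Cpt1c, the neuronal paralog with little transferase activity, stood at 26.5, 27.4 and 25.7 CPM in the controls and at 27.6, 24.2 and 24.5 CPM in the libraries labelled NFIAcKO (-0.06, adjusted p = 0.721 by edgeR). Per kb of exons Cpt1c and Cpt1a were close in the controls, at 4.73 and 4.13 CPM. The log2 ratio of Cpt1a to Cpt1c was 0.25 ± 0.19 and 0.36 ± 0.12 in the groups (SD, n = 3), a difference of 0.11 within the spread of replicates (exact two-sided permutation test, p = 0.5, smallest possible 0.1). Cpt2, the inner membrane transferase, went the other way from Slc25a20, at 11.9, 11.8 and 15.3 CPM in the controls and 16.2, 14.7 and 16.1 CPM in the libraries labelled NFIAcKO. Control replicate 3 lay within the other group, and Cpt2 did not pass (0.27, SE 0.12, adjusted p = 0.148, and 0.40 with adjusted p = 0.0679 with the trend removed).

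Acyl-CoA dehydrogenases start each round of beta-oxidation, and 2 of the 4 fell. Acadl, for long chains, stood at 44.8, 47.2 and 45.5 CPM in the controls and at 36.3, 36.6 and 39.0 CPM in the libraries labelled NFIAcKO. The groups stood well apart, and Acadl fell by 0.30 (SE 0.08, adjusted p = 0.0272 by edgeR). Its annotated exonic length is short, at 2005 bp, and its trend-removed value was -0.08 (adjusted p = 0.584). Acads, for short chains, stood at 19.1, 22.3 and 19.2 CPM and at 15.9, 16.1 and 14.9 CPM, without overlap. It fell by 0.37 (SE 0.11, adjusted p = 0.0314) and missed the threshold with the trend removed (-0.31, adjusted p = 0.0604). Acadvl, for very long chains, took a value of -0.25 (adjusted p = 0.148) and overlaps exons of Dvl2 on the other strand by 1151 bp, and Acadm, for medium chains, took a value of -0.17 (adjusted p = 0.246).

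Of the 5 genes for hydration, the next oxidation and thiolysis, 1 fell. Hadha and Hadhb encode the alpha and beta subunits of the mitochondrial trifunctional protein and are transcribed away from each other, with RefSeq starts 273 bp apart on chromosome 5. Hadhb stood at 24.8, 25.2 and 24.1 CPM in the controls and at 19.7, 19.9 and 20.0 CPM in the libraries labelled NFIAcKO. These were tight groups with no overlap, and Hadhb fell by 0.31 (SE 0.09, adjusted p = 0.0379 by edgeR). Its 6595 bp of exons place it among genes whose median log2 fold change was 0.11, and its trend-removed value was -0.28 (adjusted p = 0.058).

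Hadha stood at 108, 106 and 102 CPM in the controls and at 97.3, 109 and 97 CPM in the libraries labelled NFIAcKO, where replicate 2 reached the level of the controls (-0.07, SE 0.08, adjusted p = 0.616 by edgeR). With the trend removed its value was -0.25 (adjusted p = 0.057), close to that of Hadhb. The log2 ratio of Hadhb to Hadha was -2.10 ± 0.03 in the controls and -2.34 ± 0.09 in the libraries labelled NFIAcKO (SD, n = 3), a difference that was not tested. Among the others, Hadh, the dehydrogenase for shorter chains, took a value of -0.17 (adjusted p = 0.192) and the thiolase Acaa2 of -0.33 (adjusted p = 0.0619), both lower in every library labelled NFIAcKO. Ehhadh, the bifunctional enzyme of peroxisomes, was low at 2.88 ± 0.27 and 2.66 ± 0.336 CPM (adjusted p = 0.731).

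Electrons from the acyl-CoA dehydrogenases pass through the electron transfer flavoprotein, and both of its subunit genes fell. Etfa stood at 35.9, 46.2 and 37.97 CPM in the controls and at 32.2, 30.1 and 29.8 CPM in the libraries labelled NFIAcKO. It fell by 0.38 (SE 0.10, adjusted p = 0.0247 by edgeR), a call that was lost with the trend removed (-0.13, adjusted p = 0.353). Etfb had few reads, with counts of 153, 206 and 142 in the controls and 91, 112 and 81 in the libraries labelled NFIAcKO. It took the lowest value of the 38 genes and fell by 0.80 (SE 0.20, adjusted p = 0.0189), with a trend-removed value of -0.60 (adjusted p = 0.0591). In the annotation used here 617 of the 1164 bp of exons of Etfb overlap Gm45233 on the same strand. The deposited counts hold no row for Gm45233, so the effect of this overlap on the count of Etfb is uncertain. The level of Etfb per kb was 2.99 CPM beside 21.8 CPM for its partner. Etfdh, the dehydrogenase that hands the electrons to ubiquinone, did not pass (0.06, SE 0.08, adjusted p = 0.675).

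Of the 2 regulators, 1 rose and 1 did not pass. Ppargc1a, the coactivator PGC-1 alpha that induces mitochondrial genes, stood at 25.6, 24.2 and 26.2 CPM in the controls and at 32.7, 27.2 and 36.2 CPM in the libraries labelled NFIAcKO. All 3 lay above the controls, with the lowest close to them. Ppargc1a rose by 1.27-fold at the edge of the threshold (log2 fold change 0.34, SE 0.11, adjusted p = 0.049 by edgeR), and missed it with the trend removed (0.34, adjusted p = 0.0531) and with limma-voom and upper quartile scaling. Ppara, the nuclear receptor that induces fatty acid oxidation in liver, had 12 to 32 counts per library and could not be resolved (-0.14, SE 0.43, adjusted p = 0.86).

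The calls depended on which library was left out, among these genes as among all tested genes, and each such fit has fewer samples. The log2 fold changes of the called members kept their signs in these fits. They ran from -0.34 to -0.30 for Hadhb and from -0.76 to -0.49 for Sdhd. Sdhd was the only member called whichever library was left out (adjusted p at most 0.0461 by edgeR). Pcx, Suclg1, Sdhc, Fh1, Slc25a20, Acadl, Acads and Hadhb were called in 1 of the 6 such fits, that without control replicate 3, and in the others their adjusted p reached 0.135, 0.114, 0.164, 0.109, 0.0743, 0.124, 0.11 and 0.148. Sdhb lost its call without control replicate 1 and NFIAcKO replicates 1 and 3 (adjusted p up to 0.0749). Etfa lost it without control replicate 2 and NFIAcKO replicates 1, 2 and 3 (up to 0.0908). Etfb and Ppargc1a lost theirs without control replicates 1 and 2 and NFIAcKO replicates 1 and 3 (up to 0.0912 and 0.236). Without control replicate 3, 15 members fell and 3 rose, beside 2466 falls and 2703 rises over all tested genes. Relative to the mean of the 6 libraries, the median of the 38 genes was 0.07, 0.14 and 0.05 on the log2 scale for the controls and -0.09, -0.07 and -0.08 for the libraries labelled NFIAcKO. Control replicate 3 thus lay nearest to the other group over all 38 and over the TCA genes (0.08, 0.11 and 0.01), while over the fatty acid genes control replicate 1 did (0.07, 0.17 and 0.09).

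**Figure D3:**
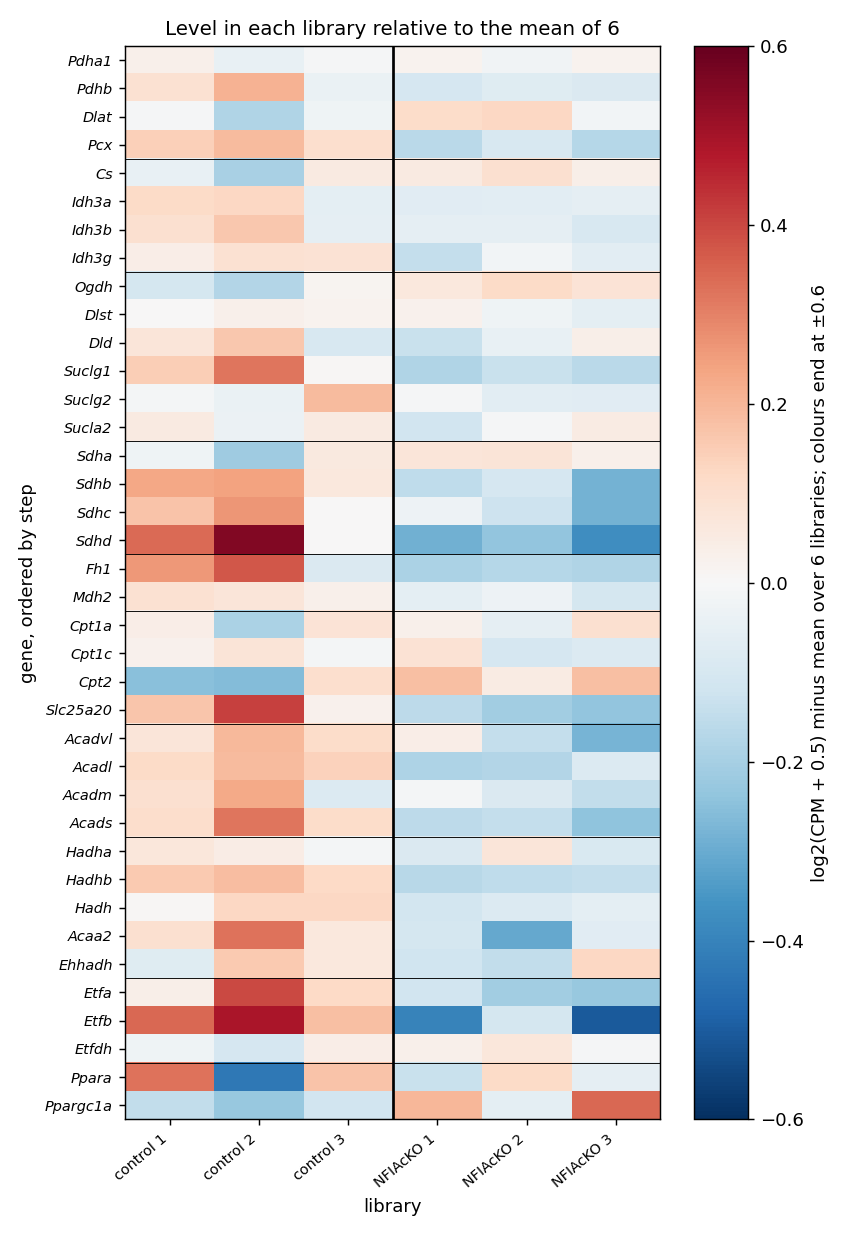
Log2(CPM + 0.5) of each gene (rows, by step) in each library (columns) minus its mean over the 6 libraries, with red for higher and blue for lower. Control replicate 2 holds the strongest red, led by Sdhd, and control replicate 3 is the palest control over the TCA rows, while Cs, Ogdh, Cpt2 and Ppargc1a run the other way from most rows.

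Exonic length went with the fold changes. Among all tested genes the median log2 fold change rose from -0.23 in the shortest octile, where 11.3% of genes fell, to 0.21 in the longest, where 0.962% fell. The slope of a library's log2 CPM per doubling of length, against the mean of the libraries, was -0.117 to -0.0188 in the controls and 0.0395 to 0.0932 in the libraries labelled NFIAcKO. Of the 38 genes 17 lay in octiles 4 and 5 (3110 to 4996 bp), where 6.6% and 4.3% of tested genes fell and 2 of 9 and 3 of 8 of these genes did. Both genes in the first octile, Sdhd and Etfb, and 4 of 5 in the second fell, where the shares of all tested genes were 11.3% and 12.3%. Set beside the median of its own octile, 31 of the 38 genes had a lower value, by a median of 0.12 over all 38.

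**Figure D4:**
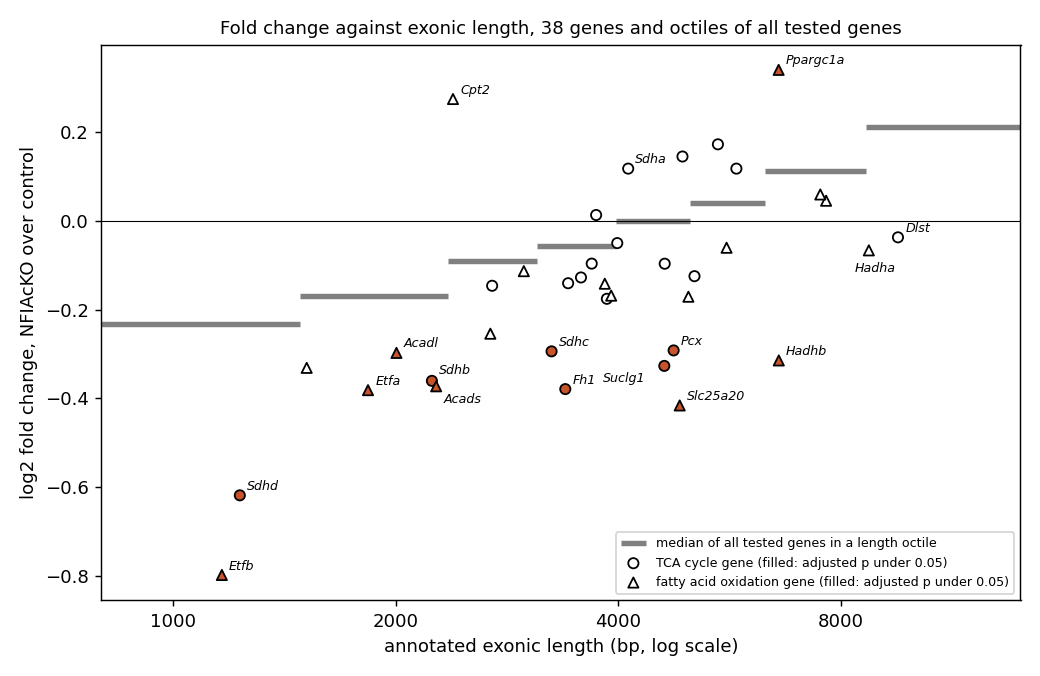
Log2 fold change (y axis) against annotated exonic length in bp (x axis, log scale) for the 20 TCA genes (circles) and 18 fatty acid oxidation genes (triangles), filled where the adjusted p was under 0.05, with grey bars at the median of all tested genes in each length octile. Sdhd and Etfb are the shortest and lowest genes, and Slc25a20, Pcx, Suclg1 and Hadhb lie below the bar of their own length class.

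Other genes of the same pathways were counted from 8 lists by step. Of 87 genes 86 were tested, of which 15 fell (17.4%, beside 6.08% of all tested genes), 4 rose (4.65%, beside 7.86%) and 67 did not pass. Echs1 and Esrrg were called in all 6 fits that left a library out, Eci2 and Ech1 in 5, Glud1 and Acaca in 4, and the other genes named as called here in 1 to 3. Among 13 genes listed as other enzymes of mitochondrial beta-oxidation 5 fell (38.5%), and 3 with the trend removed (23.1%, beside 3.88% of tested genes). Echs1, the enoyl-CoA hydratase, fell from 86.6 ± 14.1 to 55.8 ± 3.62 CPM (mean ± SD, n = 3). Its log2 fold change was -0.63 (SE 0.11, adjusted p = 0.00487 by edgeR), and the call held with the trend removed (-0.79, adjusted p = 0.019). The trend-removed value rests on 8286 bp of exons over all annotated transcripts, in an octile whose median log2 fold change was 0.11. Whether the expressed transcript is that long was not tested. The isomerases Eci2 and Eci1 fell by 0.44 and 0.43 (adjusted p = 0.00883 and 0.031), and the dehydrogenase Hsd17b10 by 0.38 (adjusted p = 0.0305). With the trend removed Eci2 kept its call (-0.48, adjusted p = 0.0119), while Eci1 (-0.30, adjusted p = 0.105) and Hsd17b10 (-0.12, adjusted p = 0.321) lost theirs.

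Around the TCA cycle, both subunits of the mitochondrial pyruvate carrier fell, Mpc1 by 0.56 and Mpc2 by 0.56 (adjusted p = 0.0118 and 0.0298 by edgeR), with 10 other genes of pyruvate entry not passing. With the trend removed Mpc1, with 2082 bp of annotated exons, kept its call (-0.38, adjusted p = 0.0434). Mpc2, with 7344 bp, lost it (-0.61, adjusted p = 0.062). Of the other cycle enzymes and assembly factors, 2 of 10 fell, and both serve succinate dehydrogenase. Sdhaf2, which inserts the flavin into Sdha, fell by 0.31 (adjusted p = 0.0442) and Sdhaf1, which serves the iron-sulfur subunit, by 0.46 (adjusted p = 0.0474). With the trend removed Sdhaf2, with 7195 bp of annotated exons, kept its call (-0.33, adjusted p = 0.0303). Sdhaf1, with 2490 bp, lost it (-0.33, adjusted p = 0.138). The assembly factors Sdhaf3 (-0.17, adjusted p = 0.304) and Sdhaf4 (-0.30, adjusted p = 0.467) did not pass. Among 14 genes of anaplerosis and carriers, Glud1, the glutamate dehydrogenase that feeds 2-oxoglutarate, fell by 0.45 (SE 0.09, adjusted p = 0.00936), at 254 ± 31.96 and 186 ± 6.37 CPM (SD, n = 3), and the oxoglutarate carrier Slc25a11 by 0.24 (adjusted p = 0.0473). The trend-removed value of Glud1 was -0.44 (adjusted p = 0.0167), and that of Slc25a11 was -0.11 (adjusted p = 0.307), which ended its call.

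Of 10 genes listed as peroxisomal, Ech1 (-0.58, adjusted p = 0.00879 by edgeR) and Acaa1a (-0.37, adjusted p = 0.0174) fell. Their trend-removed values were -0.46 and -0.43 (adjusted p = 0.0236 and 0.0247). In fatty acid activation and the shuttle 1 of 11 tested genes rose, Acaca, an enzyme of synthesis rather than oxidation (0.38, adjusted p = 0.0122), and 1 fell, Crot (-0.32, adjusted p = 0.0447, and -0.31 with adjusted p = 0.0484 with the trend removed). With 17074 bp of exons Acaca is long, and its rise was lost with the trend removed (0.06, adjusted p = 0.622).

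Of 12 transcriptional regulators of oxidative metabolism, 3 rose (25%, beside 7.86% of tested genes) and 9 did not pass. Esrrg, an orphan nuclear receptor that drives oxidative genes, stood at 159, 140 and 162 CPM in the controls and at 228, 206 and 209 CPM in the libraries labelled NFIAcKO. It rose by 0.48 (SE 0.08, adjusted p = 0.00549 by edgeR), and kept its call with the trend removed (0.49, adjusted p = 0.0107). Its relative Esrrb rose by 0.46 and the PGC-1 related coactivator Pprc1 by 0.39 (adjusted p = 0.0236 and 0.0155). Both were also called with the trend removed (0.35 and 0.25, adjusted p = 0.0472 and 0.0394).

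Promoter letters were described for the 35 members with a RefSeq window of 250 bases before to 50 after a start, on both strands. The single NFI site TTGGCA was in 6 of 35 members (17.1%), beside 16.1% of all 27025 genes with a window and 13.9% of tested genes. The full palindrome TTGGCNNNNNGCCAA, whose first 5 letters it shares, was in no member and in 0.0444% of all genes. The NRF1 site GCGCNTGCGC, of the nuclear respiratory factor, was in 7 members (20%), beside 5.19% of all genes and 9.97% of tested genes, with 3 matches in Sdha and 1 in Sdhd, shown in capitals above. The ETS site CCGGAAG was in 7 members (20%, beside 9.93% and 17.3%), the ERR site AAGGTCA in 3 (8.57%, beside 5.38% and 4.03%) and the Sp1 site GGGCGG in 25 (71.4%, beside 38.2% and 65.6%). Of the 11 fallen members with a window, 0 held the single NFI site, 2 the NRF1, 3 the ETS, 1 the ERR and 9 the Sp1 site. These are matches of letters in a window, with no measurement of binding.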

How the data were processed

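Per the labels' protocols, RNA from the RNeasy Mini Kit went into stranded Illumina mRNA libraries. STAR 2.6.1a, HTSeq, DESeq2 and mm10 are listed in the submitters' processing notes, with no role stated. The deposited files hold raw counts by gene symbol, and the 5 summary lines of each file (16.9 to 19.4% of its total) were kept out. Which annotation and strand option the authors counted with is not given in the sources used here. Counts of overlapping genes are therefore uncertain. At these depths a count of 0 allows up to 3 counts, 0.0583 to 0.0691 CPM, for counting error only. Every within-group pair differed beyond sampling noise (chi-square per degree of freedom 10.9 to 45.3). The labels do not tie embryos to litters, so p-values measure the spread between these samples.

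Groups were compared in edgeR 4.0.16 (R 4.3.3) with its quasi-likelihood test (robust), TMM scaling and filterByExpr, over 17711 genes, with Benjamini-Hochberg adjustment over all of them at 0.05. CPM are on TMM-scaled library sizes, and a gene's SE divides its log2 fold change by the root of its F statistic. On simulated counts for these genes 73% of changes of 1.5-fold and 94% of those of 2-fold were called, and 9.24% of calls were false. Only 200 genes were changed there, without a length trend. Changes under 1.5-fold, as most falls here were, were not simulated. Length, GC content and overlaps came from GENCODE M21 of GRCm38, the assembly of mm10, matched for 98.7% of tested genes. The trend was removed per library with natural splines (5 degrees of freedom each) over genes averaging more than 1 log2 CPM, as offsets in the fit. Alternatives were 2 other scalings, no filter, DESeq2 1.42.0, limma-voom (limma 3.58.1), each library left out, blocks, and Xist as a term. Members, lists and tests were chosen with earlier results of these data known. Every member is named, with values per library for those called, their complex partners and points of entry or control, and of other pathway genes at most 4 called genes per step. The genes of 1 of the 8 lists of other pathway genes are counted in the totals and not reported here by name.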

Additional observations from a re-analysis of the deposited data

How the results depend on the processing

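Of the 38 genes 12 fell and 1 rose as reported. Leaving out 1 library gave 1 to 15 falls and 0 to 3 rises, and for the 86 related genes, of which 15 fell and 4 rose, 2 to 26 falls and 1 to 7 rises; the most were called without control replicate 3, and the fewest falls without NFIAcKO replicate 1, which for the 38 genes tied with NFIAcKO replicate 3. Over all tested genes the fits that left out 1 library gave 139 to 2466 falls and 282 to 2703 rises. The full fit gave 1076 and 1392. With the length and GC trend removed 7 of the 38 genes fell and 0 rose. Among the 38 genes no rise was called by limma-voom (0) or with upper quartile scaling (0). The test within the number shared by 4 file names, 2 against 2, called 7 rises and 22 falls among related genes. Among the 38 genes it called 1 rise and 14 falls, and over all tested genes 2888 rises and 2356 falls. DESeq2, DESeq2 size factors, no filter, the file name number and Xist as a term left 12 or 13 falls and 1 rise among the 38. With the replicate number as a block 12 of the 38 fell and 1 rose, the same 13 genes, and with that replicate block and the trend removed together 9 fell and 2 rose, with 2 rises among related genes. Deviations of same-numbered libraries correlated at 0.0875, 0.12 and 0.119, and those of other pairs across the groups at -0.0894 to -0.0369. Each library thus correlated best with its own number. The labels do not say whether the numbers pair the samples, and the main fit held no block.

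Signs turned only for genes that were not called. Without the trend, and without it under the replicate block, Dld took 0.0629 and 0.0626, Sucla2 0.0467 and 0.0485, Cpt1a -0.0946 and -0.0949, and Etfdh -0.0014 and -0.0009. Pdha1 took -0.0249 with upper quartile scaling, and Ppara 0.0212 with limma-voom and 0.0225 within the shared file name number. Over the fits that leave out a library, Pdha1 ranged from -0.0126 to 0.0307, Cpt1a from -0.0421 to 0.0959 and Ppara from -0.520 to 0.172, while the difference between groups in the isozyme ratio Sucla2 to Suclg2 (log2) ranged from -0.0167 to 0.107. The cause of these changes was not tested. Depth limits Ppara, Ehhadh and Etfb most.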
